A study of Mus musculus with 9 samples.

Results

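The G1 cyclins, the cyclin-dependent kinases (CDKs) that they activate, the retinoblastoma gene Rb1 and E2f3 were followed in the liver of male mice aged 20 weeks. The group holds 10 genes, Ccnd1, Ccnd2, Ccnd3, Ccne1, Ccne2, Cdk2, Cdk4, Cdk6, Rb1 and E2f3, and its probes were found by matching the RefSeq accession of each array probe to these symbols. All 10 genes, of the 20972 named genes on the array, had a probe, 15 probes in all, and 13 probes of 9 genes gave enough signal to be tested.

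Liver RNA of each mouse was read on its own 1-colour Agilent array, with 3 mice per group, and p-values measure only the spread between these samples. STAM mice are C57BL/6J males given a low dose of streptozotocin, a toxin of pancreatic beta cells, as newborns and later a high-fat diet, and they are a model of diabetes with fatty liver disease and liver cancer. STAM-NON mice were left untreated, STAM-INS mice were injected under the skin with insulin glargine, and Normal mice are labelled as normal with no STAM treatment, so that STAM-NON and Normal differ in the toxin and the diet at once. The comparison of STAM-NON with Normal asks how the G1 machinery differs in the diseased liver, and that of STAM-INS with STAM-NON asks whether insulin treatment was accompanied by a difference. Whether tumour or other tissue was taken is not given in the sources used here.

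Cells pass from G1 into DNA synthesis through a relay of cyclins and kinases. The D-type cyclins (Ccnd1, Ccnd2, Ccnd3) appear when growth factors are present and activate Cdk4 and Cdk6, which phosphorylate the Rb protein, while the E-type cyclins (Ccne1, Ccne2) activate Cdk2, which completes the step. Unphosphorylated Rb binds E2F factors such as E2f3 and holds down their target genes, which encode DNA replication enzymes, and CDK inhibitors such as p21 (Cdkn1a) and p16 (Cdkn2a) act against the kinases. Hepatocytes of an adult liver are mostly at rest, and cyclin D1 is the cyclin best known for their entry into the cycle after partial hepatectomy.

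Since this relay ends in E2F factors, the promoters on record were searched for E2F binding words, and 4 stretches are shown so that the words can be seen in members and in 2 related genes whose values are given below. The words were TTTCGCGC, TTTGGCGC, TTTCCCGC and TTTGCCGC, on both strands, in the 250 bases before each transcript start in RefSeq on the assembly GRCm38.p6. The sequences used here cover promoters of 6 of the 10 genes, and that of Cdk2 and 1 of 2 of E2f3 hold a word, while these letters are not in the windows of Ccnd3, Ccne1, Cdk4 and Cdk6. Of all 32851 promoters searched, 1.86% hold at least 1 of the words. The stretches lie at chr10:128705158-128705217 on the minus strand (Cdk2), chr13:29986064-29986100 on the minus strand (E2f3), chr2:157204535-157204578 on the minus strand (Rbl1) and chr8:75109330-75109389 on the plus strand (Mcm5). Capitals mark the word or its reverse complement, and each is written in the direction of transcription. In Mcm5 a second word, TTTGGCGC read on the other strand, overlaps the one in capitals.
Cdk2: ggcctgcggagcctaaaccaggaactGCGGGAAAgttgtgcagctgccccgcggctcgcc
E2f3: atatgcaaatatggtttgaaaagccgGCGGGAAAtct
Rbl1: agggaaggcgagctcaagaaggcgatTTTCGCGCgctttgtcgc
Mcm5: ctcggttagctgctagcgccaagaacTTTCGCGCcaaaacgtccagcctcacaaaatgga

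Values are log2 signals relative to the 75th percentile of their array, and differences are on the same log2 scale, so that 1 is a fold of 2. Probes differ in brightness, and levels of different genes are not compared. Between 46.2% and 65.0% of spots per array were well above background, with STAM-NON 1 and 3 and STAM-INS 1 at the upper end. The 3 Normal arrays lay on a slide of their own, so slide and group cannot be told apart in any comparison with Normal. Of 7 hepatocyte markers tested, 1 fell (Cps1) and none rose in STAM-NON against Normal, and their summed signal relative to the 75th percentile ranged from 3101 to 4154 in STAM-NON, from 4158 to 4555 in STAM-INS and from 4202 to 4427 in Normal. In whole tissue, fewer cells of a type and less RNA per cell cannot be told apart.

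Cyclin D1 was the 1 member called, and the call depended on the processing. In STAM-NON against Normal, 1 of the 9 tested genes passed the threshold (limma, adjusted p under 0.05), beside 16.8% of the 13386 named genes tested across the array. Across the array 7.87% were called higher and 8.93% lower. The share of the members, 11.1%, was not above that background, and the median difference of the 9 was 0.12, beside -0.11 over all named genes.

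Ccnd1, which encodes cyclin D1, had values of 3.96, 4.14 and 3.27 in the STAM-NON mice, 2.92, 3.39 and 3.68 in the STAM-INS mice and 2.93, 2.73 and 2.21 in the Normal mice. All STAM-NON values lay above all Normal values, while the STAM-INS values overlapped both groups. The STAM-NON mean was 3.79 ± 0.46, that of STAM-INS 3.33 ± 0.38 and that of Normal 2.62 ± 0.37 (SD, 3 mice each). Ccnd1 was therefore 2.24-fold higher in STAM-NON than in Normal (95% interval 1.41 to 3.57), a difference of 1.17 with an SE of 0.29 and a limma adjusted p of 0.0342. STAM-INS stood between the other groups and differed from neither beyond the threshold. It was 0.70 above Normal (95% interval 0.03 to 1.38, limma adjusted p 0.137) and lower than STAM-NON by a difference of -0.46 (95% interval -1.13 to 0.21, limma adjusted p 0.692). The difference between STAM-NON and Normal was positive under all 26 alternatives run for it, from 0.96 to 1.78, but the adjusted p stayed under 0.05 in 12 of them. It passed the methods' unpaired test without adjustment and lost the call under the other 13, with adjusted p from 0.0555 to 0.198. Leaving out STAM-NON replicate 1 or 2, STAM-INS replicate 2 or any of the Normal replicates lost it, as did leaving out the 3 arrays with the most spots above background.

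**Figure D1:**
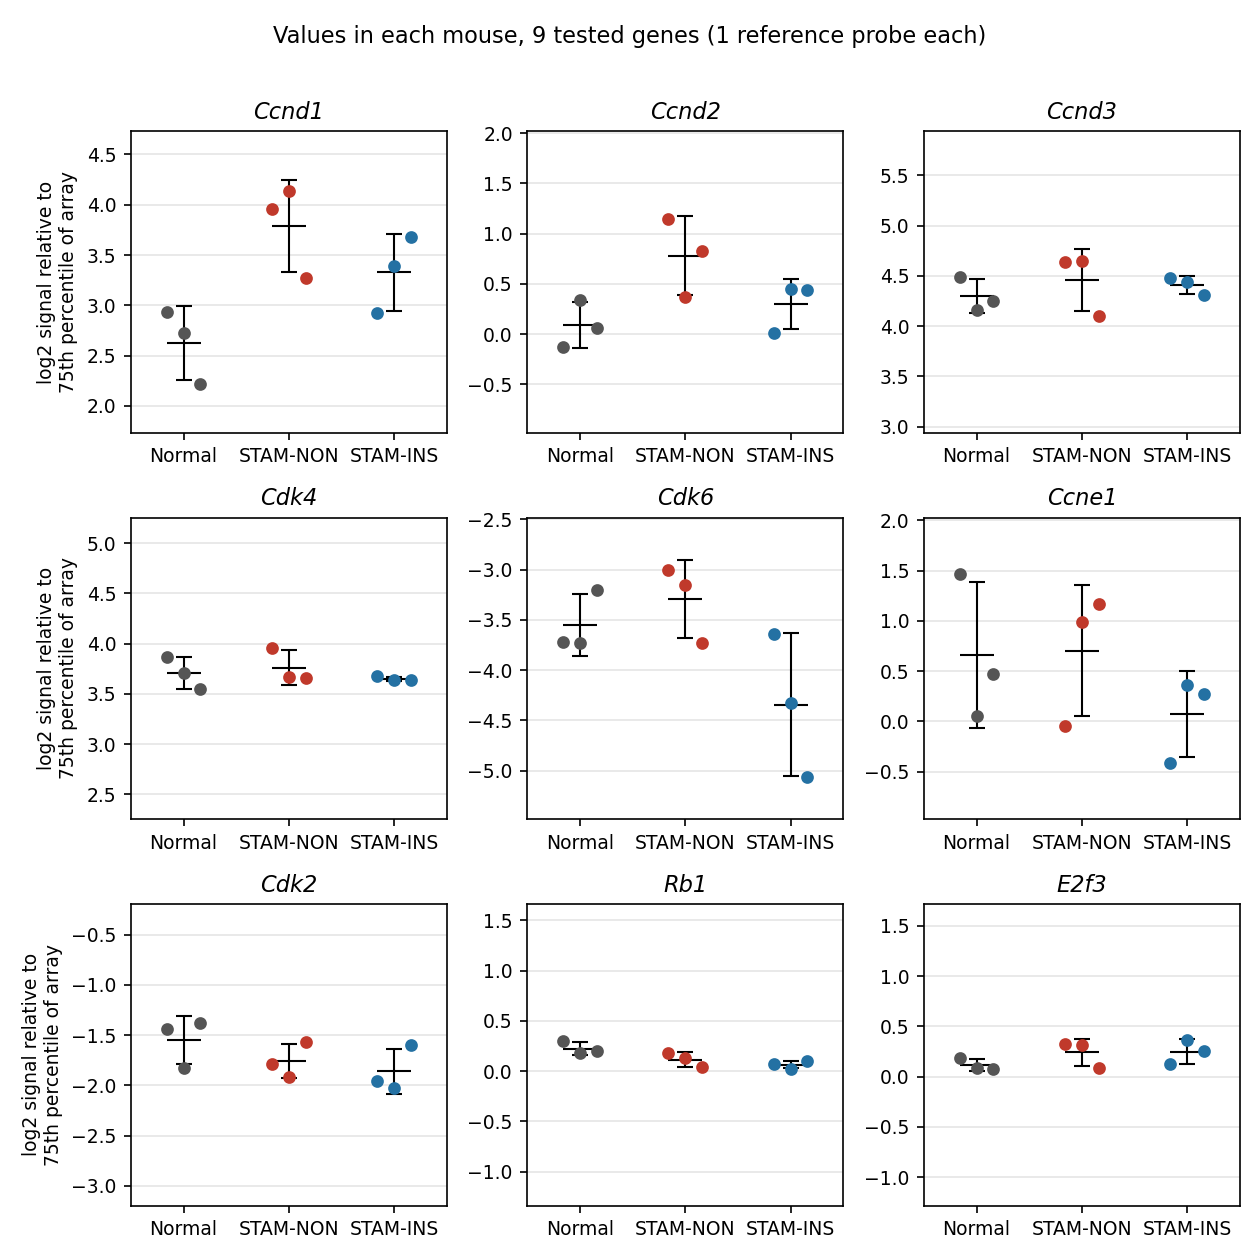
Log2 signal relative to the 75th percentile of the array (y axis, 3 log2 units high in every panel) in each mouse of the Normal, STAM-NON and STAM-INS groups (x axis) for the 9 tested genes. Points are mice and bars are means with SD of 3 mice. The STAM-NON points of Ccnd1 lie between 3.27 and 4.14 and all Normal points at or under 2.93, while the points of Cdk4 and Rb1 lie close together in all groups.

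**Figure D2:**
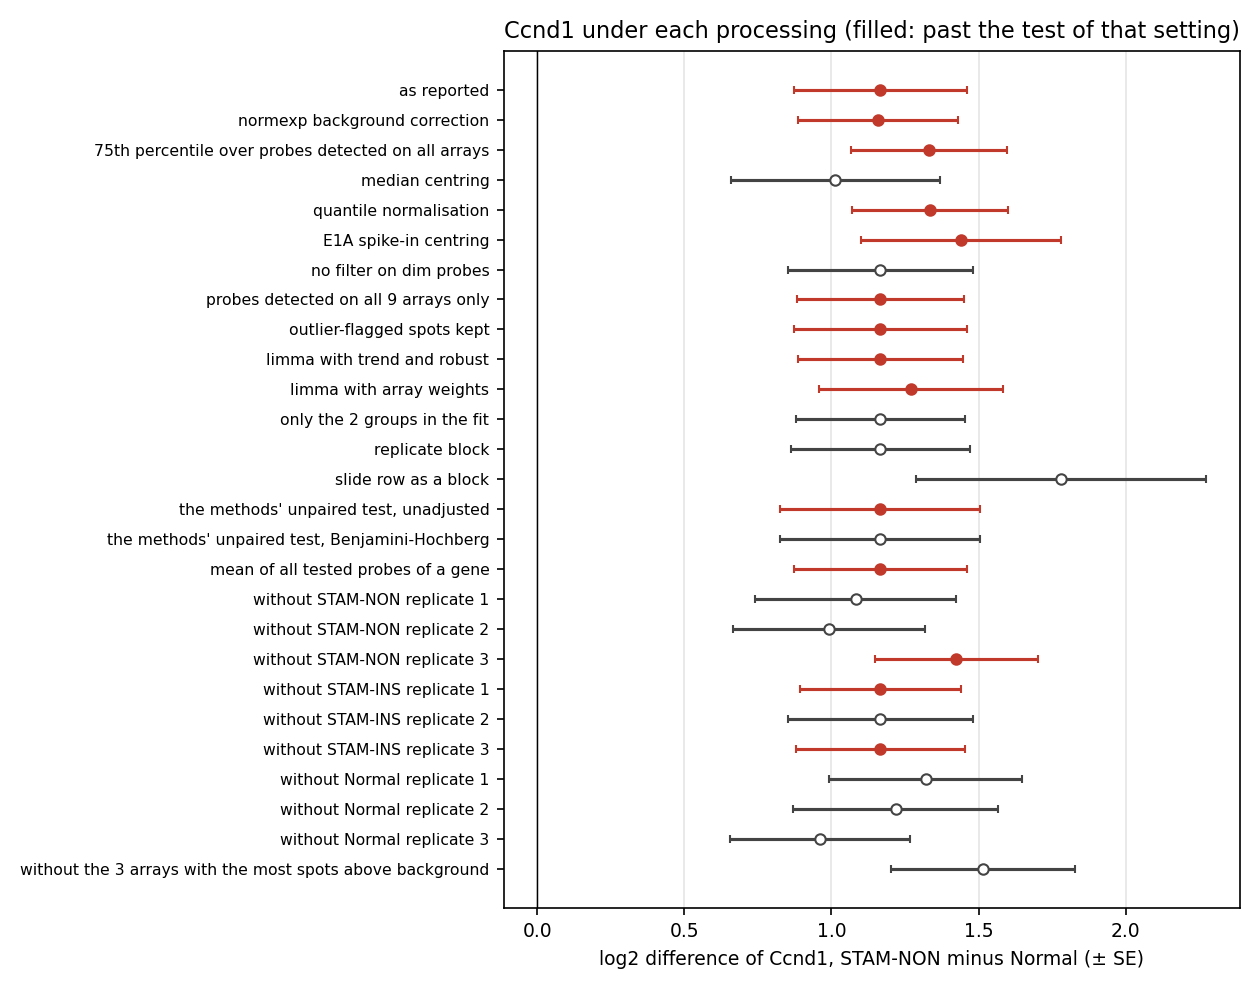
Difference of Ccnd1 between STAM-NON and Normal on the log2 scale (x axis, with SE) as reported and under each of 26 alternatives (y axis). Filled points pass the test of that setting, and all points lie between 0.96 and 1.78.

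The other D-type cyclins did not pass the threshold. Ccnd2, encoding cyclin D2, had values of 1.15, 0.37 and 0.83 in STAM-NON, 0.0093, 0.45 and 0.44 in STAM-INS and -0.12, 0.33 and 0.063 in Normal. The lowest STAM-NON mouse was just above the highest Normal mouse. The difference of STAM-NON from Normal was 0.69 with a limma adjusted p of 0.0681 (95% interval 0.18 to 1.20). It passed under normexp background correction, with array weights and without STAM-NON replicate 2. STAM-INS differed from STAM-NON by -0.48 (95% interval -0.997 to 0.030) and from Normal by 0.21 (95% interval -0.31 to 0.72).

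Ccnd3, encoding cyclin D3, was measured by 2 probes of different transcripts. The brighter gave 4.63, 4.65 and 4.11 in STAM-NON, 4.48, 4.44 and 4.31 in STAM-INS and 4.49, 4.16 and 4.25 in Normal, with overlap between all groups. Its difference was 0.16 in STAM-NON against Normal (95% interval -0.23 to 0.55), and that of the other probe was 0.24. Between STAM-INS and STAM-NON the probes differed by -0.053 and -0.067.

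The kinase partners of the D-type cyclins gave small or uncertain differences. Cdk4 was measured by 3 probes of 1 transcript, and its reference probe, the brightest, gave 3.96, 3.66 and 3.66 in STAM-NON, 3.68, 3.64 and 3.64 in STAM-INS and 3.86, 3.71 and 3.55 in Normal. Over the 3 probes, STAM-NON differed from Normal by 0.056, 0.12 and 0.15, STAM-INS from STAM-NON by -0.11, -0.063 and -0.13, and STAM-INS from Normal by -0.054, 0.055 and 0.016. The 95% interval of the reference probe ran from -0.24 to 0.35 for STAM-NON against Normal, which excludes a fold of 2 in either direction on these 3 mice per group.

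Cdk6 was dim, with values of -3.0, -3.15 and -3.73 in STAM-NON, -3.64, -4.33 and -5.06 in STAM-INS and -3.72, -3.73 and -3.20 in Normal. Its probe was well above background on 3 STAM-NON arrays, 1 STAM-INS array and 1 Normal array. It was tested only through STAM-NON, and STAM-INS 2 and 3 lay under the lowest detected values of their arrays, -3.88 and -3.79, so the values are a description. STAM-INS had the lowest mean, with a difference of -1.05 from STAM-NON. Within the slide row that held all STAM-NON arrays and 1 STAM-INS array, the difference was -0.35, and with normexp background correction over all arrays it was -0.23. STAM-INS differed from Normal by -0.79 and STAM-NON from Normal by 0.26, and Cdk6 was called in none of the comparisons.

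The E-type cyclins and Cdk2 act after the D-type cyclins. Ccne1, encoding cyclin E1, varied among mice of 1 group, with values of -0.044, 0.99 and 1.16 in STAM-NON, -0.41, 0.37 and 0.27 in STAM-INS and 1.47, 0.050 and 0.47 in Normal. The highest value of all 9 was that of a Normal mouse. Ccne1 differed by 0.042 between STAM-NON and Normal (95% interval -0.95 to 1.03) and by -0.63 between STAM-INS and STAM-NON (95% interval -1.62 to 0.36), so that differences of nearly 1 in either direction in the first case cannot be set aside. A second Ccne1 probe was well above background on 1 STAM-NON and 1 Normal array and was not tested. The 1 probe of Ccne2, encoding cyclin E2, was well above background on 0 of 9 arrays, and no level is given for it.

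Cdk2, the kinase partner of the E-type cyclins and a gene whose promoter stretch is shown above, had values of -1.78, -1.91 and -1.57 in STAM-NON, -1.95, -2.02 and -1.60 in STAM-INS and -1.44, -1.82 and -1.38 in Normal. The groups overlapped. STAM-NON differed from Normal by -0.21 (limma adjusted p 0.405) and STAM-INS from Normal by -0.31 (limma adjusted p 0.243).

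Rb1, the gene of the retinoblastoma protein that restrains E2F factors, was read from 10 spots of 1 probe per array. One of these spots was left out on Normal replicate 3 for an outlier flag. The values were 0.18, 0.13 and 0.038 in STAM-NON, 0.070, 0.025 and 0.10 in STAM-INS and 0.30, 0.18 and 0.20 in Normal. The Normal mice lay above the STAM mice without overlap, by a narrow margin, and the differences from Normal were -0.11 in STAM-NON (95% interval -0.33 to 0.11, limma adjusted p 0.438) and -0.16 in STAM-INS (95% interval -0.38 to 0.063, limma adjusted p 0.287). The sign of the first depends on the scaling, being 0.16 with E1A spike-in centring and 0.055 when only probes seen on every array set the percentile.

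E2f3, an E2F factor that activates replication genes when Rb releases it, was measured by 2 probes that did not move alike. The brighter probe gave 0.32, 0.31 and 0.090 in STAM-NON, 0.12, 0.37 and 0.26 in STAM-INS and 0.19, 0.091 and 0.079 in Normal, with overlapping groups and differences of 0.12 in STAM-NON against Normal, 0.0066 in STAM-INS against STAM-NON and 0.13 in STAM-INS against Normal. The dimmer probe gave -2.38, -2.29 and -2.35 in STAM-NON, -2.62, -1.51 and -2.50 in STAM-INS and -2.92, -3.23 and -2.75 in Normal. Every STAM mouse was above every Normal mouse on this probe. Its differences from Normal were 0.63 in STAM-NON (limma adjusted p 0.141) and 0.76 in STAM-INS (limma adjusted p 0.0990), neither past the threshold.

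**Figure D3:**
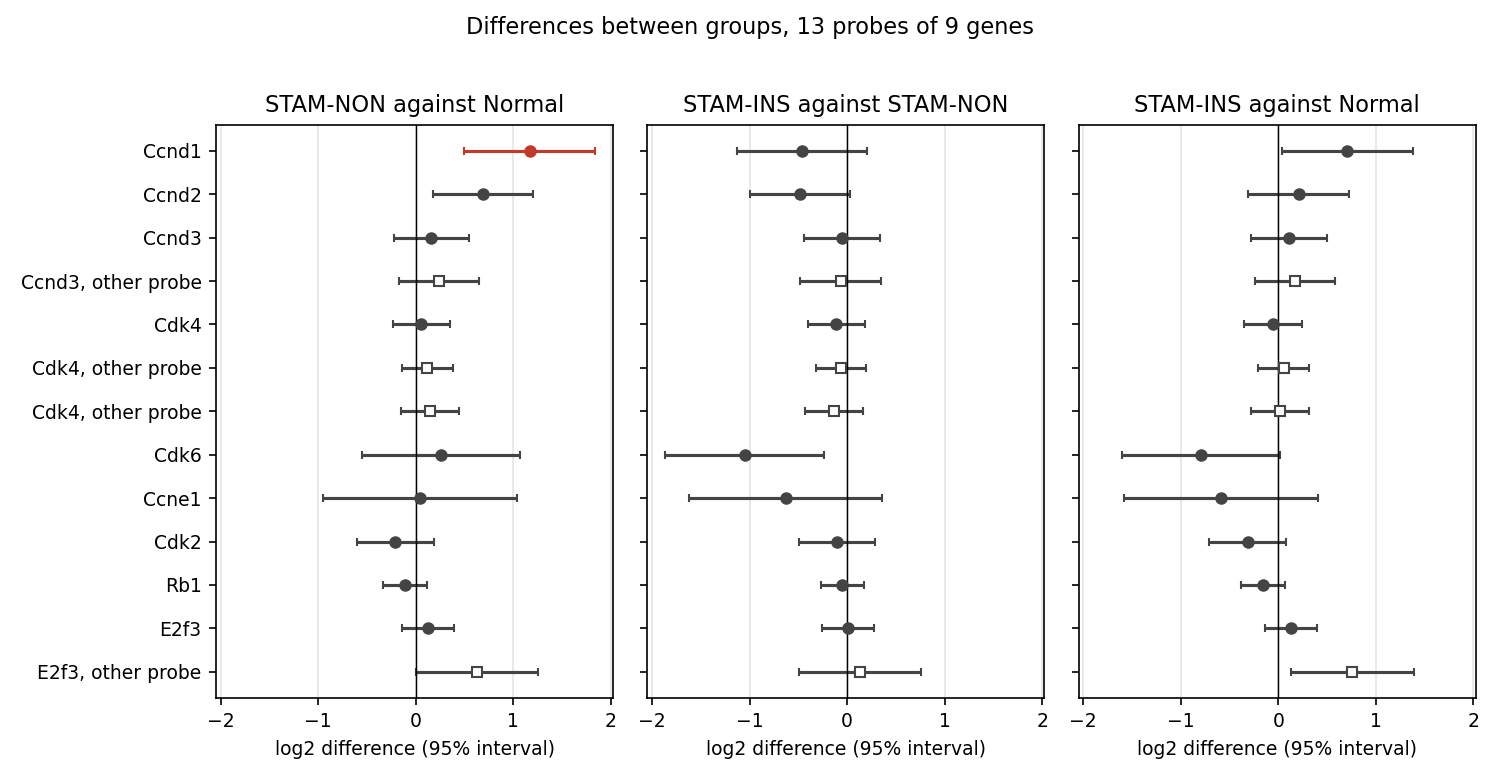
Log2 difference with its 95% interval (x axis) for the 13 tested probes of 9 genes (y axis) in the 3 comparisons. Circles are reference probes and open squares other probes of the same gene, and the red point is the 1 probe with a limma adjusted p under 0.05, Ccnd1 in STAM-NON against Normal at 1.17.

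Insulin treatment was accompanied by no member past the threshold. In STAM-INS against STAM-NON, limma called 0 of 9 genes, beside 0.0822% of all named genes, and the methods' unpaired test passed 0. Without adjustment, 1 gene had a limma p under 0.05, beside 1248 of 13386 named genes. That gene was Cdk6, whose p rests on values under background as given above. In STAM-INS against Normal, limma called 0 of 9, beside 13.6% of all named genes (6.15% higher and 7.49% lower). Without adjustment, 1 gene had a limma p under 0.05 (Ccnd1), beside 4293 of 13386 named genes. The methods' unpaired test without adjustment passed 1 (Rb1), beside 8811 of 26278 probes. Each pair of comparisons shares the arrays of 1 group, so their differences are not independent. The median difference of the 9 members was -0.11 in STAM-INS against STAM-NON, beside 0.029 over all named genes, and -0.054 in STAM-INS against Normal, beside -0.065.

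The CDK inhibitors, which act on the kinases above, included Cdkn1a, the pathway gene with the largest difference by reference probe. In STAM-NON against Normal 4 of 7 rose, beside 7.87% of all named genes, 0 fell and 3 did not pass, with a median difference of 0.76 beside -0.11 over all named genes. Over the alternatives 1 to 4 were called, with 1 (Cdkn1a) by the methods' test after adjustment and 2 (Cdkn1a and Cdkn2a) without the 3 arrays with the most spots above background. Leaving out STAM-NON replicate 3 or any 1 Normal replicate also left 2. Cdkn1a, encoding p21, had values of 1.24, 1.55 and 1.99 in STAM-NON, 1.07, 2.57 and 2.09 in STAM-INS and -3.33, -3.33 and -3.54 in Normal. All STAM mice lay far above all Normal mice. Its difference was 4.99 in STAM-NON (SE 0.35, limma adjusted p 0.00127) and 5.31 in STAM-INS (SE 0.35, limma adjusted p 0.00106), each against Normal. Cdkn2a, the gene of p16 and Arf, was well above background on 0 of 3 Normal arrays and all 6 STAM arrays, so that only a bound can be given. A second probe of the same transcript was well above background on 0 of 9 arrays. Since both probes belong to 1 transcript, p16 and Arf were not measured apart, and the rise cannot be assigned to p16. By the first probe, Cdkn2a in STAM-NON was at least 8.77-fold higher than in Normal (limma adjusted p 0.00140), and in STAM-INS at least 6.82-fold higher (limma adjusted p 0.00173). For these bounds each Normal array counts with its dimmest signal well above background, or with the probe itself where that is brighter. Cdkn2b and Cdkn2c, inhibitors of Cdk4 and Cdk6, were higher by 1.58 and 0.76 in STAM-NON and by 1.80 and 1.02 in STAM-INS. Cdkn2b was well above background on 1 Normal array, and in STAM-NON its adjusted p passed under 8 of 25 alternatives. Against Normal 4 of 7 likewise rose in STAM-INS, beside 6.15% of all named genes. In STAM-INS against STAM-NON 0 of 7 passed, with 0 at an unadjusted limma p under 0.05 and 0 by the methods' unpaired test. The largest differences by reference probe were -0.71 for Cdkn1c and -0.36 for Cdkn2a.

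Relatives of Rb1 and E2f3 were called in both directions, as genes were across the array. In STAM-NON against Normal, 2 of 11 rose and 2 fell, beside 7.87% and 8.93% of all named genes, and 7 did not pass. Their median difference was -0.22, beside -0.11 over all named genes. Over the alternatives 0 to 5 were called, with 0 by the methods' test after adjustment, and 0, 2 and 1 without Normal replicate 1, 2 and 3 and 2 without STAM-NON replicate 1. Rbl1, encoding the Rb relative p107 and shown above with an E2F word, had values of -1.41, -1.93 and -2.03 in STAM-NON, -1.75, -1.68 and -2.18 in STAM-INS and -3.92, -2.65 and -3.46 in Normal. It was higher by 1.56 in STAM-NON and by 1.47 in STAM-INS (limma adjusted p 0.0206 and 0.0232), with 2 of 3 Normal arrays well above background. E2f2, an activating E2F, was higher by 1.61 and 2.07 (limma adjusted p 0.0456 and 0.0234), and the first passed under 10 of 26 alternatives. E2f5, an E2F that represses, was lower in STAM-NON by a difference of -1.01, and Tfdp2, a dimerisation partner of E2F factors, by -0.84 in STAM-NON and -0.59 in STAM-INS. A second Tfdp2 probe was at -0.55 in STAM-NON, which did not pass, and at -1.06 in STAM-INS, which did (limma adjusted p 0.165 and 0.0335). Against Normal, 2 of 11 rose and 1 fell in STAM-INS mice, beside 6.15% and 7.49% of all named genes. Here 0 to 5 were called over the alternatives, and 0 or 1 when any 1 STAM-INS or Normal replicate was left out. In STAM-INS against STAM-NON 0 of 11 passed, with 1 at an unadjusted limma p under 0.05 and 0 by the methods' unpaired test, and the largest differences were 0.61 for E2f8 and 0.50 for E2f5. E2f7, named here after its values were seen, had a dim second probe well above background on 3 STAM-NON, 2 STAM-INS and 0 Normal arrays. This probe was tested only through STAM-NON, so its values are a description. Against Normal it was higher by at least 2.41-fold in STAM-NON and at least 1.48-fold in STAM-INS. The reference probe of E2f7 differed from Normal by 0.057 and -0.071.

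Genes that switch the CDKs on or take cyclins apart showed no call by their reference probes. Of all named genes, 16.8% were called in STAM-NON against Normal and 13.6% in STAM-INS against Normal. After adjustment the methods' unpaired test called 0 of 12 in every comparison. In STAM-NON against Normal limma called 0 of 12. Without adjustment, 1 had a limma p under 0.05, beside 4840 of 13386 named genes. The unadjusted unpaired test passed 1, beside 7534 of 26278 probes. The largest differences were 0.49 for Cdc25a, the phosphatase that activates Cdk2, and 0.44 for Cks1b, a subunit of CDKs and of the ligase for p27. In STAM-INS against Normal limma called 0 of 12, and Cks1b was at 0.73 and Cdc25a at 0.52. Without adjustment, 1 had a limma p under 0.05, beside 4293 of 13386 named genes. The unadjusted unpaired test passed 4, beside 8811 of 26278 probes. Here 12 alternatives gave 1 to 4 calls, and the adjusted p of Cks1b (limma, 0.0535 as reported) passed under 10 of 26, among them without STAM-INS replicate 1 and without the 3 arrays with the most spots above background. In STAM-INS against STAM-NON limma called 0 of 12. Without adjustment, 1 had a limma p under 0.05, beside 1248 of 13386 named genes. The unadjusted unpaired test passed 2, beside 1498 of 26278 probes. Cul1, a scaffold of the ligase that degrades cyclin E, was at 0.40 and Cks1b at 0.29. A second probe of Fbxw7, which recognises cyclin E for that ligase, was 0.43 higher in STAM-NON and 0.59 higher in STAM-INS than in Normal (limma adjusted p 0.0348 and 0.0137), while its reference probe was at -0.034 and 0.17.

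Targets of E2F in S phase were called in both directions, as genes were across the array. In STAM-NON against Normal, 2 of 14 tested rose and 1 fell, beside 7.87% and 8.93% of all named genes, and 11 did not pass. Their median difference was 0.64, beside -0.11 over all named genes. Over the alternatives 1 to 8 were called, and Tk1 alone was called without the 3 arrays with the most spots above background. The count was also 1 without STAM-NON replicate 1 or any 1 Normal replicate. Mcm5, a subunit of the replicative helicase shown above with its E2F word, had values of 0.51, -0.16 and -0.45 in STAM-NON, -0.84, -0.013 and -1.46 in STAM-INS and -1.70, -1.14 and -1.22 in Normal. It was 1.32 higher in STAM-NON (limma adjusted p 0.0485), and Mcm2, another subunit, was 1.26 higher (limma adjusted p 0.0310), and these passed under 10 and 15 of 26 alternatives. Tk1, a thymidine kinase of nucleotide salvage, was lower in all STAM mice, at 2.30, 2.10 and 2.12 in STAM-NON, 2.29, 1.77 and 1.73 in STAM-INS and 3.69, 3.72 and 3.71 in Normal. Its difference from Normal was -1.53 in STAM-NON and -1.77 in STAM-INS (limma adjusted p 0.00397 and 0.00185). Tk1 was the 1 of 14 called in STAM-INS against Normal, beside 13.6% of all named genes. In STAM-INS against STAM-NON 0 of 14 passed, with 1 at an unadjusted limma p under 0.05 and 0 by the methods' unpaired test, and Mcm5 and Mcm2 were at -0.74 and -0.61.

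**Figure D4:**
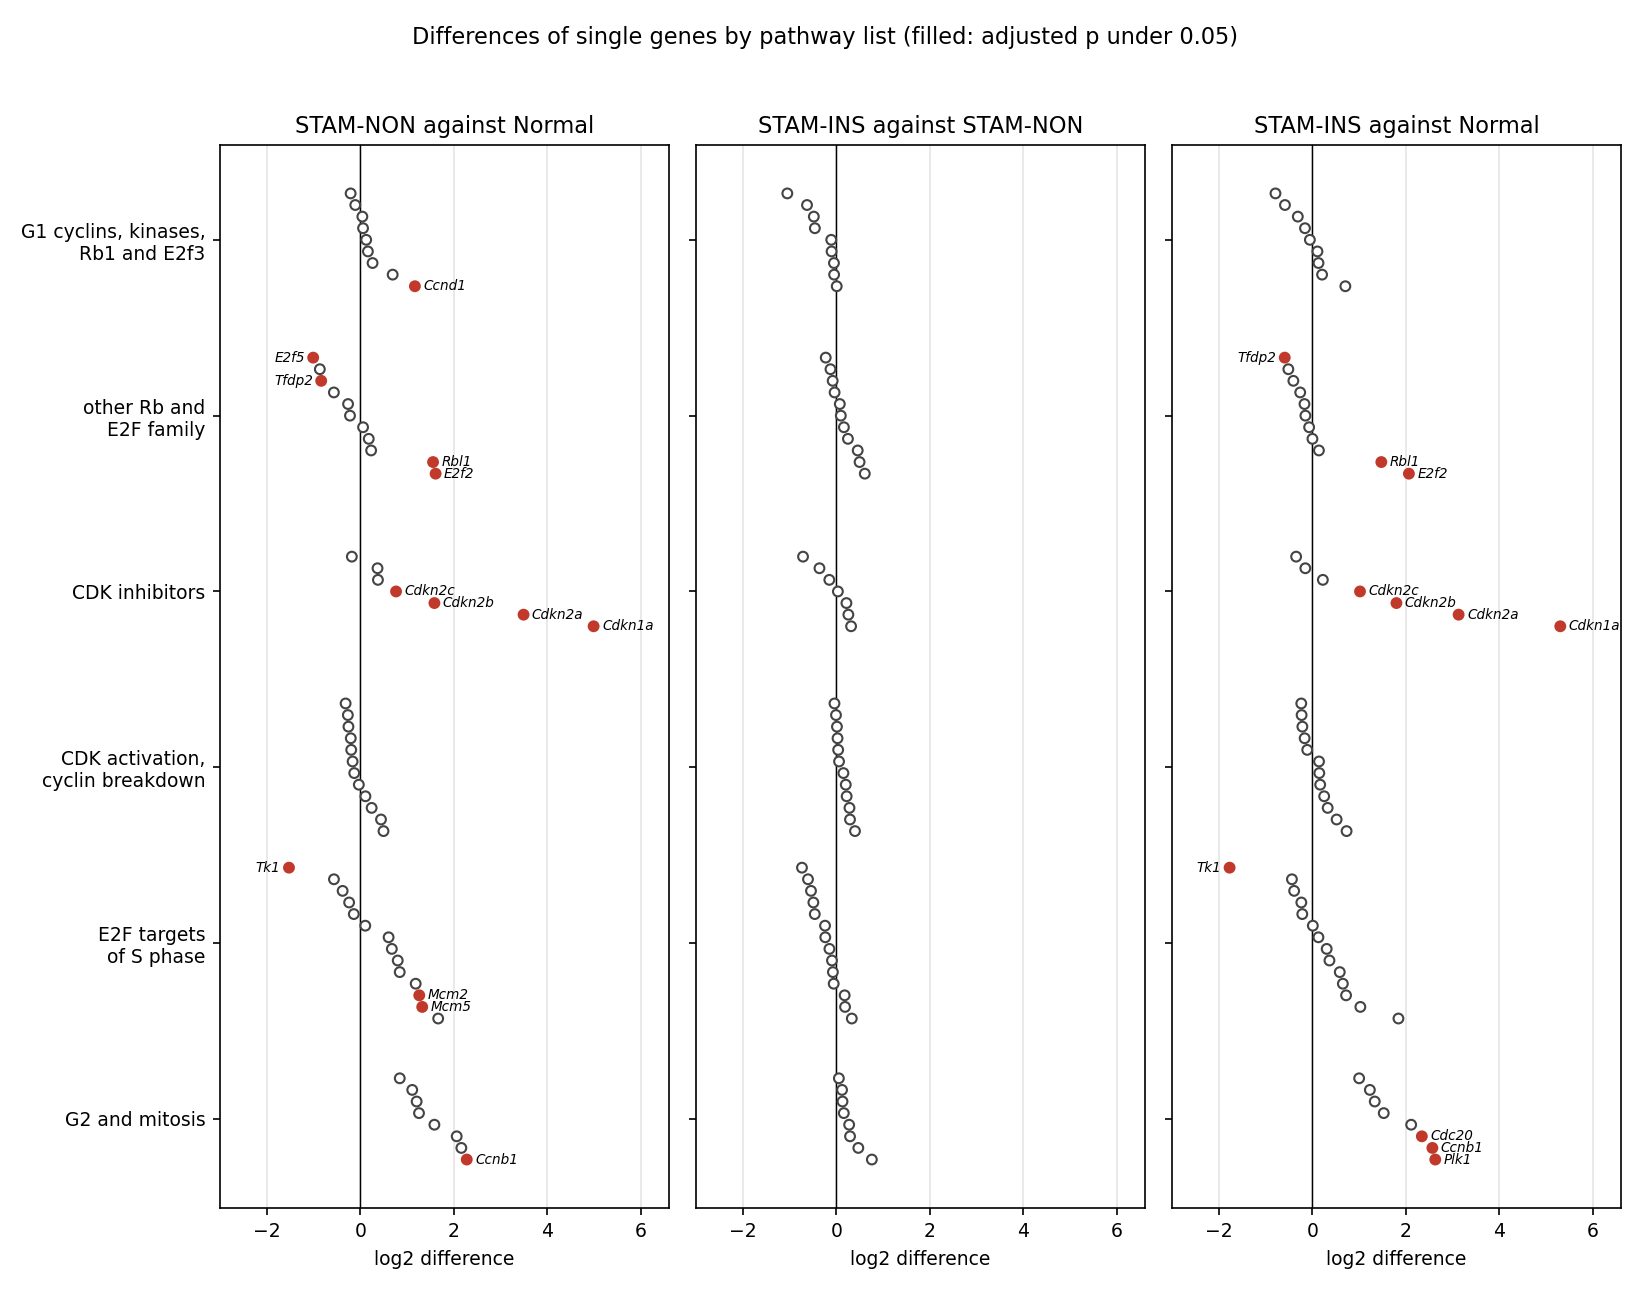
Log2 difference of each tested gene (x axis, reference probes) by pathway list (y axis) in the 3 comparisons. Filled red points, named beside them, have a limma adjusted p under 0.05. In both comparisons with Normal 4 of 7 CDK inhibitors are filled and lie to the right of 0. In STAM-NON against Normal 1 of 9 G1 members is filled, and in STAM-INS against STAM-NON no point is filled.

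Of 8 genes of G2 and mitosis tested, 1 rose in STAM-NON against Normal and 3 rose in STAM-INS against Normal, beside 7.87% and 6.15% of all named genes. All 8 differences were above 0 in both, with medians of 1.42 and 1.82. These counts moved with the setting, from 0 to 4 in both, and were 0 and 0 without the 3 arrays with the most spots above background. Without STAM-NON replicate 2 or STAM-INS replicate 2 the first was 3 or 4, and without any other 1 array it was 0. The second was 0 without STAM-INS replicate 1 or 2 or any 1 Normal replicate, and 2 without STAM-NON replicate 1 or 3. Ccnb1, encoding cyclin B1, was higher by 2.28 and 2.57, but its probe was well above background on 1 of 3 Normal arrays, so these sizes rest partly on values under background. In STAM-NON its limma adjusted p was 0.04996, just under the threshold, and it passed under 8 of 25 alternatives. In STAM-INS, Plk1, a mitotic kinase, was higher by 2.63 and Cdc20, which activates the anaphase ligase, by 2.34, which passed under 15 and 9 of 26. In STAM-INS against STAM-NON 0 of 8 passed, with 0 at an unadjusted limma p under 0.05 and 0 by the methods' unpaired test, and Cdc20 and Plk1 were at 0.76 and 0.47.

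Ccnd1 and 4 genes of S phase and mitosis, Ccna2, Ccnb1, Plk1 and Mki67, did not rank the mice alike. The STAM-NON mouse with the highest Ccnd1 value, replicate 2 at 4.14, had the lowest value among the STAM mice of Mki67, the gene of a protein present in dividing cells, at -1.25, and of Ccna2, the S phase cyclin, at -2.78. STAM-INS replicate 2 had the highest Mki67 value, 1.60, and the highest Ccna2 value, 0.016, with Ccnd1 at 3.39. These 4 genes were chosen after their values were seen, and others differ, since STAM-NON replicate 2 was second highest of the STAM mice for Mcm2, at -0.36. The array of STAM-NON replicate 2 had 47.8% of spots above background, and so did that of STAM-INS replicate 2. STAM-NON replicate 2 also had the lowest summed macrophage signal of the STAM mice, 44.5, whose part was not tested. These are single mice, and no correlation is given for groups of 3.

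**Figure D5:**
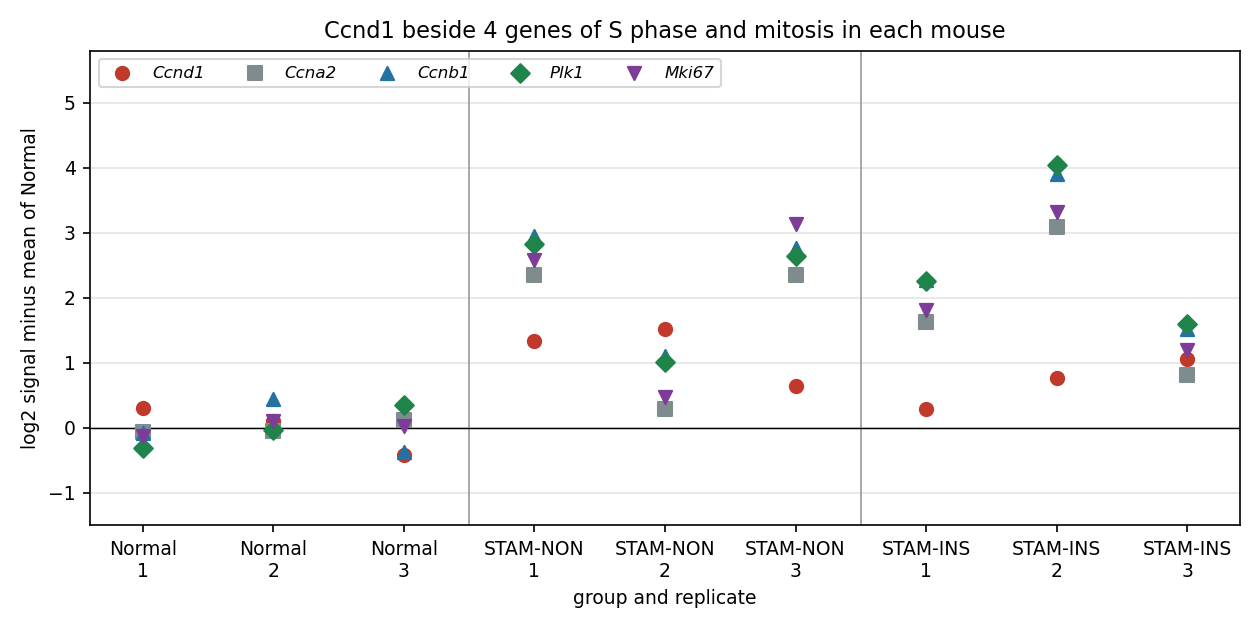
Log2 signal minus the mean of the 3 Normal mice (y axis) for Ccnd1, Ccna2, Ccnb1, Plk1 and Mki67 in each mouse (x axis, by group and replicate). STAM-NON replicate 2 is highest for Ccnd1 and lowest of the 6 STAM mice for the other 4 genes.

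By the RMS difference of values centred on their mean over 9 arrays, the genes with a pattern most like that of Ccnd1, among 12844 genes with an official symbol, were Adgrg2 at 0.24, Tlr12 at 0.26 and Ctps at 0.27, where the RMS of Ccnd1 itself was 0.58. Adgrg2 was higher by 0.93 in STAM-NON against Normal (limma adjusted p 0.0366), with 2 of 3 Normal arrays well above background. Tlr12 and Ctps were at 0.92 and 0.74 and did not pass (limma adjusted p 0.0533 and 0.0907).

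Markers of other liver cells also moved between the groups that differed in Ccnd1. In STAM-NON against Normal, where 7.87% of all named genes were called higher, 4 of 7 macrophage markers rose (Clec4f, Itgax, Mpeg1 and Trem2). The summed signal of the macrophage markers ranged from 44.5 to 72.7 in STAM-NON, from 58.8 to 80.3 in STAM-INS and from 24.9 to 32.3 in Normal. Of 6 biliary and progenitor markers 3 rose, with sums from 4.64 to 11.4 in STAM-NON, from 4.42 to 6.96 in STAM-INS and from 2.21 to 4.08 in Normal. Among the remaining cell types, 1 of 4 lymphocyte markers (Ptprc), 1 of 8 stellate and fibroblast markers (Lum) and 1 of 6 endothelial markers (Lyve1) rose. The summed signal of the stellate and fibroblast markers ranged from 83.1 to 130.5 in STAM-NON, from 65.5 to 76.0 in STAM-INS and from 70.5 to 79.0 in Normal. Of other lists, the 1 tumour marker tested, Afp, was higher by 3.10, and of 2 tested markers of other tissues Cela1, a pancreatic elastase, by 2.63. In STAM-INS against Normal, 3 of 7 macrophage markers, 1 of 6 biliary and progenitor markers, 1 of 4 lymphocyte markers and 0 of 8 stellate and 0 of 6 endothelial markers rose. Afp and Cela1 were also called higher in STAM-INS against Normal, by 3.30 and 1.94. Of all named genes 6.15% were called higher there. The part of these cells in the Ccnd1, Cdkn1a and Cdkn2a values was not tested.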

How the data were processed

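The deposited files hold the intensity of each spot from Agilent Feature Extraction 11.5.1.1, per the labels, already background-subtracted by the authors and not normalised between arrays. The array was designed on mm9. The labels and the methods of the study name different RNA extraction kits, and the methods name no normalisation or test for the arrays. Control and outlier-flagged spots were left out (161 to 217 flagged per array, none saturated) and spots of 1 probe averaged. The log2 of the intensity minus the 75th percentile of the array entered lmFit and eBayes of limma 3.58.1 under R 4.3.3 (all 9 arrays, two-sided, 6 residual degrees of freedom), with Benjamini-Hochberg adjustment over 26278 probes and a threshold of 0.05. Testing required that, on all 3 arrays of 1 group, a share of 0.5 or more of the spots of a probe stood well above background, and 13 probes with a missing value were left out. With 3 arrays per group, their number limits the precision.

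Accessions were matched to RefSeq (GRCm38.p6), used for names and promoters. A gene was represented by its brightest tested probe. All members are named, and of each pathway list the called genes, at most the 4 with the largest differences, or otherwise the 2 largest. Members and lists were chosen with earlier results of these data known. Processing alternatives covered background correction (normexp with an offset of 50, on the median signal, since the mean signal was not used here), scaling, filters, models, blocks, the methods' unpaired test with equal variances and leaving out each array. The fit was tested on simulated data.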

Additional observations from a re-analysis of the deposited data

Results flagged for a closer look

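Probes outside the tests held signal in STAM mice. The probe of Bub1, a mitotic checkpoint kinase, was well above background on 4 STAM arrays and 0 Normal arrays. A probe of Cdc6, which loads the replicative helicase, was well above background on 2 STAM arrays and 0 Normal arrays, with its highest value, -0.83, in STAM-INS replicate 2. A second Cdc6 probe of the same transcript did not repeat this, at -5.88 in that mouse. It was well above background on 3 STAM arrays and 1 Normal array. How many untested probes across the array share such a pattern was not counted. Neither gene had a tested probe.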

How the results depend on the processing

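With Ccnd1 alone called in STAM-NON against Normal, the count of member genes called was 2 with normexp background correction and with array weights (Ccnd1 and Ccnd2). It was 0 with median centring, no filter on dim probes, only the 2 groups in the model, slide row as a block, the methods' unpaired test after Benjamini-Hochberg adjustment, and, chosen after seeing the data, without the 3 arrays with the most spots above background. Leaving out each array in turn gave 0 to 1, and without STAM-NON replicate 2 the 1 gene was Ccnd2. For Ccnd1 the difference then ranged from 0.96 to 1.43. In STAM-INS against STAM-NON the count was 0 under every alternative run. In STAM-INS against Normal it was 1 with array weights (Ccnd1) and 1 by the methods' unadjusted test (Rb1), and 0 under the other alternatives. Except where a value or the construction of the alternative shows it, the cause was not tested.

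Replicate numbers were not treated as pairs in the reported fit. The correlations of deviations ran from -0.29 to 0.15 for same-numbered arrays and from -0.19 to 0.28 for the others. With 3 arrays per group, these cannot show whether the arrays were paired. With the replicate number as a block, 0 member genes were called in STAM-NON against Normal (limma adjusted p of Ccnd1 0.0644), 2016 probes were called in place of 4220, and in STAM-INS against Normal 1872 in place of 3647. With slide row as a block these counts were 15 and 2157, where STAM-NON and Normal shared no row. The methods' test after adjustment gave 30 and 2828.

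Scaling moved the median difference of all probes in STAM-NON against Normal from -0.13 to -0.29 with median centring, 0.031 with the percentile over probes detected on all arrays, -0.037 with quantile normalisation and 0.14 with E1A spike-in centring. The share of calls that were higher was 39.2%, against 27.9% with normexp, 66.4%, 51.9% and 84.8% with the percentile, quantile and E1A settings. In STAM-INS against Normal it was 37.2%, against 56.3% with the percentile and 64.7% with E1A.

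Differences near 0 changed sign. With median centring, STAM-NON against Normal was -0.11 for Ccne1, -0.096 for Cdk4 and -0.029 for E2f3, STAM-INS against STAM-NON was -0.012 for E2f3, and STAM-INS against Normal was -0.064 for Ccnd3 and -0.041 for E2f3. With normexp, Ccne1 was -0.0067 in STAM-NON against Normal and Cdk4 0.041 in STAM-INS against Normal. With the percentile over detected probes, Rb1 was 0.055 in STAM-NON against Normal, E2f3 -0.036 in STAM-INS against STAM-NON and Cdk4 0.068 in STAM-INS against Normal. With E1A centring these were 0.16, -0.15 and 0.066, and Cdk2 was 0.064 in STAM-NON against Normal. Cdk4 in STAM-INS against Normal was 0.10 with quantile normalisation and 0.0056 as the mean of its probes. With slide row as a block, Cdk6 was -0.79 in STAM-NON against Normal, and in STAM-INS against STAM-NON Ccnd3 was 0.015, E2f3 -0.12 and Cks1b -0.10, with the same values for Ccnd3 and E2f3 within slide row 1. Without the 3 arrays named above, Cdk4 was -0.040 in STAM-NON against Normal, and in STAM-INS against STAM-NON Ccnd2 was 0.073, Cdk2 0.10 and E2f3 -0.0023.

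Leaving out each array in turn, STAM-NON against Normal ran from -0.26 to 0.44 for Ccne1 and from -0.043 to 0.14 for Cdk4, STAM-INS against Normal from -0.13 to 0.025 for Cdk4, and STAM-INS against STAM-NON from -0.23 to 0.040 for Ccnd3, from -0.070 to 0.069 for E2f3, from -0.042 to 1.29 for Cdc20 and from -0.24 to 0.99 for Plk1. Signal over background limits Cdk6, the second Ccne1 probe and Ccne2.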
